A study of Fundulus heteroclitus with 8 samples.

Results

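The ubiquitin and SUMO conjugation system is described here by its transcript levels in testes of the mummichog (Fundulus heteroclitus, an estuarine killifish). The members are the array probes whose design name holds the word ubiquitin, SUMO, NEDD8, cullin, F-box or RING finger, without proteasome subunits, ribosomal fusion proteins, ubiquinone enzymes, names with the word ubiquitously and Tripartite motif protein 25. There were 73 such probes under 62 product names, of 7157 probes in all. Counts over all members use the full set, and 72 of the 73 are grouped by role here: 13 probes of the modifiers themselves, 12 of conjugating enzymes and their variants, 34 of ligases and ligase subunits, 7 of enzymes that take modifiers off, and 6 of other proteins. Not every one of them is named with its value. The product names are those of the array design and refer to proteins named in other organisms, so the roles given here are known from those species, mostly human, mouse and yeast.

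The 8 samples were 4 control males and 4 males exposed through the water to 5α-dihydrotestosterone, a potent androgen that aromatase cannot convert to an estrogen, at 50 µg/L over 21 days (DHT50). All were adult fish and testis by their labels, which give no strain and no other agent. Each sample was hybridised to 1 single-colour array, all 8 on 1 slide and scanned once, and the labels call the samples biological replicates. The comparison asks which of these transcripts differed between DHT50 and control testis.

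Ubiquitin is a small protein that is attached to other proteins through a relay of an activating enzyme (E1), a conjugating enzyme (E2) and a ligase (E3) that picks the target. Chains of ubiquitin send a protein to the proteasome or change its location or partners, and deubiquitinating enzymes remove them. SUMO and NEDD8 are related proteins with relays of their own, and NEDD8 switches on the cullin scaffolds of the largest class of E3 ligases. In the testis of mammals the system is known for the turnover of proteins during meiosis and for the exchange of histones when spermatids condense their chromatin.

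A level is the log2 signal of a probe minus the 75th percentile of its array, so 0 is as bright as that percentile and 1 unit is a doubling. That percentile, the brightness of an array, was 11.21 in control 1 and 10.95 in DHT50 1, 9.99 to 10.09 in the other controls, and 9.50, 9.13 and 7.97 in DHT50 4, DHT50 3 and DHT50 2. The lowest level at which any probe was well above background was -6.93 in control 1 and -3.75 in DHT50 2, so dim probes are cut off at different levels. Slide row 1 held control 1 and DHT50 1, 2 and 3, and slide row 2 held the other controls and DHT50 4, so a value within 1 row rests on a lone array of 1 group, which is assumed to vary like the others. Of the 73 members, 56 (DHT50 2) to 70 (DHT50 4) had signals well above background. The germ cell marker DEAD-box protein 4 (vasa) was well above background on all 8 arrays and Steroidogenic acute regulatory protein of steroid-making cells on 6 of 8. The 49 probes with liver and plasma protein names summed to a log2 level of 9.89 in control 1 and to 3.90 to 6.23 on the other 7 arrays, which sets control 1 apart. In whole tissue, fewer cells of a type and less RNA per cell cannot be told apart.

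No member of the ubiquitin and SUMO system changed past the threshold with DHT50. Of the 73 members, 67 were well above background on at least 4 arrays and were tested, and the other 6 have no result here. Of the 67, 31 were higher and 36 lower in DHT50, with log2 changes of -1.20 to 2.51 and a median of -0.04. Over all 5989 tested probes the median was 0.06, 53.6% were higher and 46.4% lower. By limma with Benjamini-Hochberg adjustment over all tested probes 0 of 67 members passed an adjusted p of 0.05 (0% of all probes passed), and every member named below had an adjusted p of 0.685 to 0.996. At an unadjusted p under 0.05 there was 1 member, 1.49% of the 67, against 4.71% of all tested probes. That member was higher in DHT50, as were 3.29% of all tested probes at this threshold, and 0 members were lower, against 1.42% of all tested probes. The groups did not overlap for 0 of 67 members, against 2.22% of all tested probes. The plot of all changes by role shows the spread within each role.

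**Figure D1:**
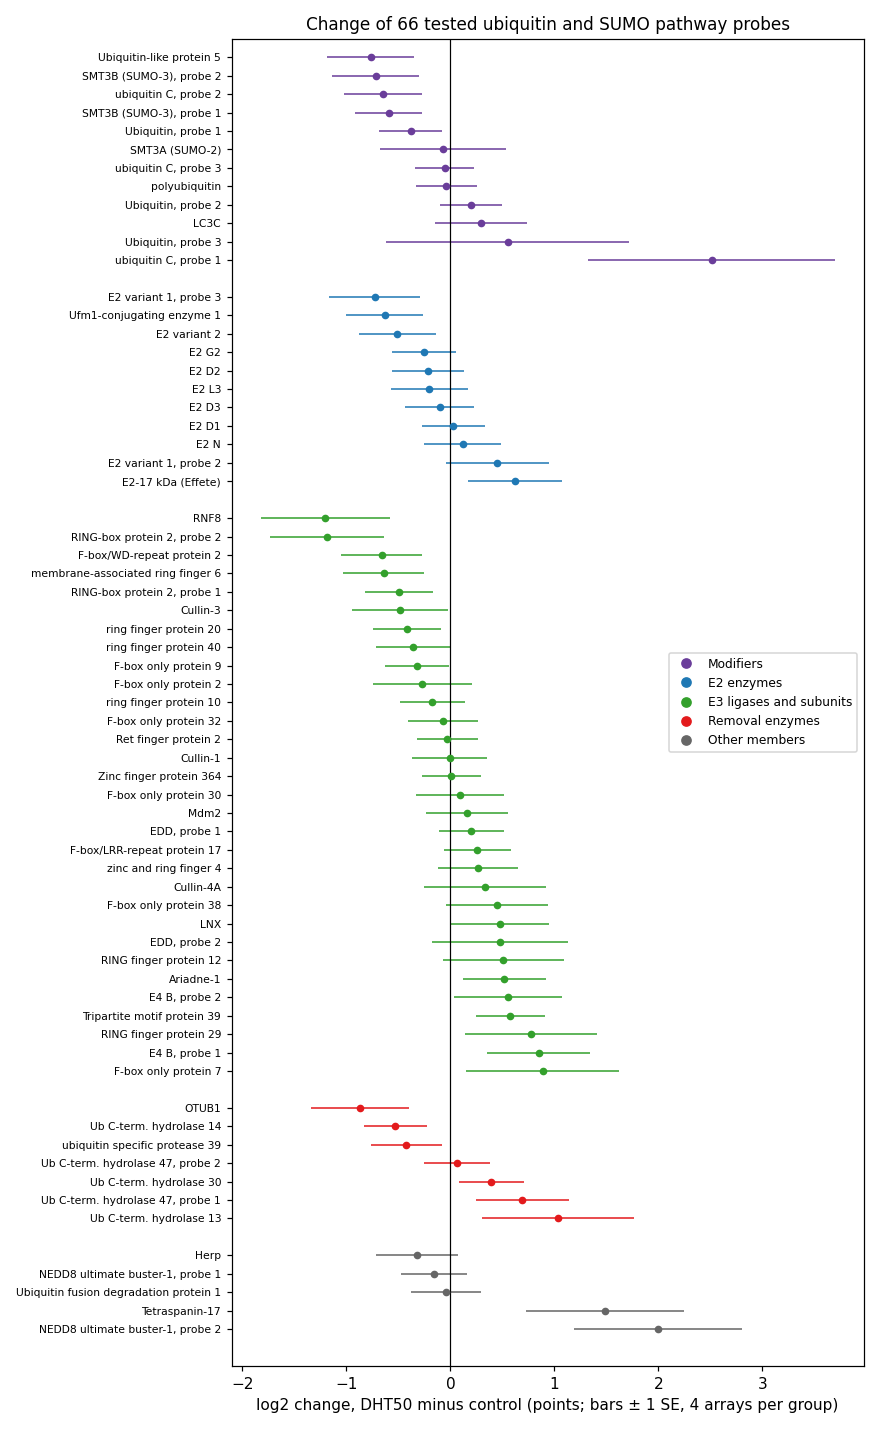
Log2 change (DHT50 minus control) with its standard error for 66 tested members, grouped by role (x axis, log2 units; 4 arrays per group). The changes lie on both sides of 0 in every role shown, and NEDD8 ultimate buster-1 probe 2 and ubiquitin C probe 1 lie farthest to the right.

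Among the modifiers, 4 of 12 tested probes were higher and 8 lower, with a median change of -0.06. The 3 brightest ubiquitin probes stayed within a narrow band on all arrays. The probe named polyubiquitin, a chain of ubiquitin units made as one protein, stood at 6.998, 7.37, 7.40 and 7.71 in controls 1 to 4 and at 7.25, 7.53, 7.30 and 7.24 in DHT50 1 to 4. Ubiquitin C probe 3 stood at 7.10 to 7.54 in controls and 7.17 to 7.44 in DHT50, and Ubiquitin probe 2 at 6.58 to 7.32 and 6.88 to 7.10. All 3 have DHT50 levels inside the control range, and their changes were -0.04 ± 0.29 (log2 change ± SE, n = 4 per group), -0.06 ± 0.28 and 0.20 ± 0.30.

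The other ubiquitin probes spread more, and ubiquitin C probe 1 and Ubiquitin probe 3 did so by far the most. Ubiquitin C probe 1 stood at -4.62, -4.12, -1.17 and -1.65 in controls 1 to 4 and at 0.87, -2.85, 2.27 and -1.81 in DHT50 1 to 4. DHT50 1 and DHT50 3 were above every control and the other 2 DHT50 arrays lay among the controls, so its change of 2.51 ± 1.18, the largest of any member, had an unadjusted p of 0.0610 (limma). That change was 4.72 within slide row 1, 0.50 within slide row 2 and 1.63 without DHT50 3. Ubiquitin probe 3 stood at -4.62, -1.37, -0.55 and -2.27 in controls and at -4.23, 0.83, -2.81 and -0.40 in DHT50. DHT50 2 and DHT50 4 were above every control, and control 1 and DHT50 1 were the lowest of their groups. The change was 0.55 ± 1.17 and turned to -0.26 without control 1 and to -0.28 without DHT50 2. Ubiquitin C probe 2 stood at 4.26, 3.86, 3.90 and 4.26 in controls and at 4.30, 2.96, 3.42 and 3.005 in DHT50, a change of -0.65 ± 0.37 with 3 of 4 DHT50 arrays below every control. Ubiquitin probe 1 had a change of -0.38 ± 0.30, also with 3 of 4 below.

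The 3 SUMO probes had changes of -0.07 to -0.72. SMT3B, which the design calls SUMO-3, is on 2 probes that moved together over the arrays. Probe 1 stood at 0.03, 0.25, -0.43 and -0.15 in controls and at -0.31, -1.001, -0.95 and -0.41 in DHT50, and probe 2 at 1.73, 1.78, 0.999 and 1.75 and at 1.27, -0.25, 1.09 and 1.28. On both, control 3 was the lowest control and DHT50 2 the lowest array of all, and the groups overlapped through control 3. Their changes were -0.59 ± 0.32 and -0.72 ± 0.42, with -0.48 and -0.35 without DHT50 2. SMT3A, called SUMO-2, ranged from 0.31 to 2.29 in controls and from 0.04 to 2.47 in DHT50, with control 1 and DHT50 1 lowest, and its change of -0.07 ± 0.61 became 0.67 once slide row was a block in the fit.

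Ubiquitin-like protein 5, a relative of ubiquitin that binds spliceosome proteins without being conjugated in the usual way, was the steadiest member among the controls, at -0.34, -0.24, -0.32 and -0.22. In DHT50 it stood at -0.07, -2.02, -1.24 and -0.86. DHT50 1 was above every control and the other 3 below every control, and the change was -0.77 ± 0.42. It was -0.44 without DHT50 2. The LC3C probe, of an autophagy protein that shares the ubiquitin fold, had a change of 0.29 ± 0.44, and Autophagy-related protein 8, of the same family, was well above background on only 2 of 8 arrays and was not tested.

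Ufm1-conjugating enzyme 1, the E2 for the ubiquitin-like modifier UFM1, stood at 0.80, 1.03, 1.45 and 0.94 in controls and at 1.15, 0.35, -0.31 and 0.52 in DHT50. On this probe 3 of 4 DHT50 arrays were below every control and DHT50 1 was within the control range. The change was -0.63 ± 0.37, and -0.39 without DHT50 3.

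Of 12 E2 probes 11 were tested, with 4 higher, 7 lower and a median change of -0.20. The E2 D family, which works with many RING ligases, gave small changes: D1 had a change of 0.03 ± 0.30, D2 of -0.22 ± 0.35 and D3 of -0.10 ± 0.34. E2 N (Ubc13) pairs with the E2 variants to build chains linked through lysine 63 of ubiquitin, which serve signalling and DNA repair. E2 N had a change of 0.12 ± 0.37, and its partner E2 variant 2 (MMS2) of -0.51 ± 0.37, with -0.25 without DHT50 2. E2 variant 1 (UEV-1) probe 3 stood at -0.36, -0.51, -0.95 and 0.10 in controls and at -0.15, -1.85, -1.63 and -1.02 in DHT50, a change of -0.73 ± 0.43. Again DHT50 1 lay among the controls and the other 3 DHT50 arrays below them. E2 L3 (UbcH7), which serves HECT and RBR ligases, was at -0.20 ± 0.37, and E2 G2, an E2 of degradation at the endoplasmic reticulum, at -0.25 ± 0.31. The largest positive change was that of E2-17 kDa, named after the fly protein Effete, at 0.62 ± 0.46. Its highest level was 1.40 in DHT50 2, against -0.83 to 0.04 in controls, and without that array the change was 0.23.

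The E3 group had 31 tested probes of 34, with 17 higher, 14 lower and a median change of 0.09. Its cullin-RING part, 5 probes, had 4 lower and a median of -0.48. RING-box protein 2 (Rbx2) is a RING subunit that recruits the E2 to some cullin ligases, and its 2 probes gave the same order of groups. Probe 2 stood at -2.67, -2.96, -2.65 and -2.33 in controls and at -2.12, -4.80, -4.01 and -4.41 in DHT50, and probe 1 at 1.40, 1.93, 2.06 and 2.04 and at 1.90, 0.99, 1.33 and 1.24. On both, 3 of 4 DHT50 arrays were below every control, while DHT50 1 was above every control on probe 2 and within them on probe 1. The changes were -1.18 ± 0.55 (a fold of 2.27, unadjusted p = 0.0564, limma) and -0.49 ± 0.33. Probe 2 was well above background on 3 of 4 DHT50 arrays, and its change was -0.42 after normexp background correction.

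Cullin-3, the scaffold for BTB-domain adaptors, had -1.86, -2.14, -2.13 and -1.77 in controls and -1.12, -3.28, -2.63 and -2.81 in DHT50, which is the same arrangement with DHT50 1 highest of all arrays. Its change was -0.48 ± 0.46, -0.93 without DHT50 1, -0.21 without DHT50 2 and 0.09 with array brightness in the fit. Cullin-1, the scaffold for F-box proteins, was at -0.01 ± 0.36 and Cullin-4A, which serves DNA repair adaptors, at 0.33 ± 0.59. The 8 tested F-box proteins, which bring targets to Cullin-1, had 4 higher and 4 lower and a median of 0.01. F-box/WD-repeat protein 2 was at -0.66 ± 0.39 with 3 of 4 DHT50 arrays below every control. It was well above background on 3 of 4 DHT50 arrays, and its change was -0.27 after normexp. F-box only protein 7 had the largest positive change of the E3 group, 0.89 ± 0.74, with levels of -1.15, 0.63, -0.18 and 0.38 in controls and -0.88, 2.89, 0.65 and 0.57 in DHT50. Only DHT50 2 stood clearly above the controls, and without it the change was 0.19. F-box only protein 32 (atrogin-1), the ligase of muscle atrophy, was at -0.07 ± 0.34, and F-box only protein 40 was well above background on 0 of 8 arrays.

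**Figure D2:**
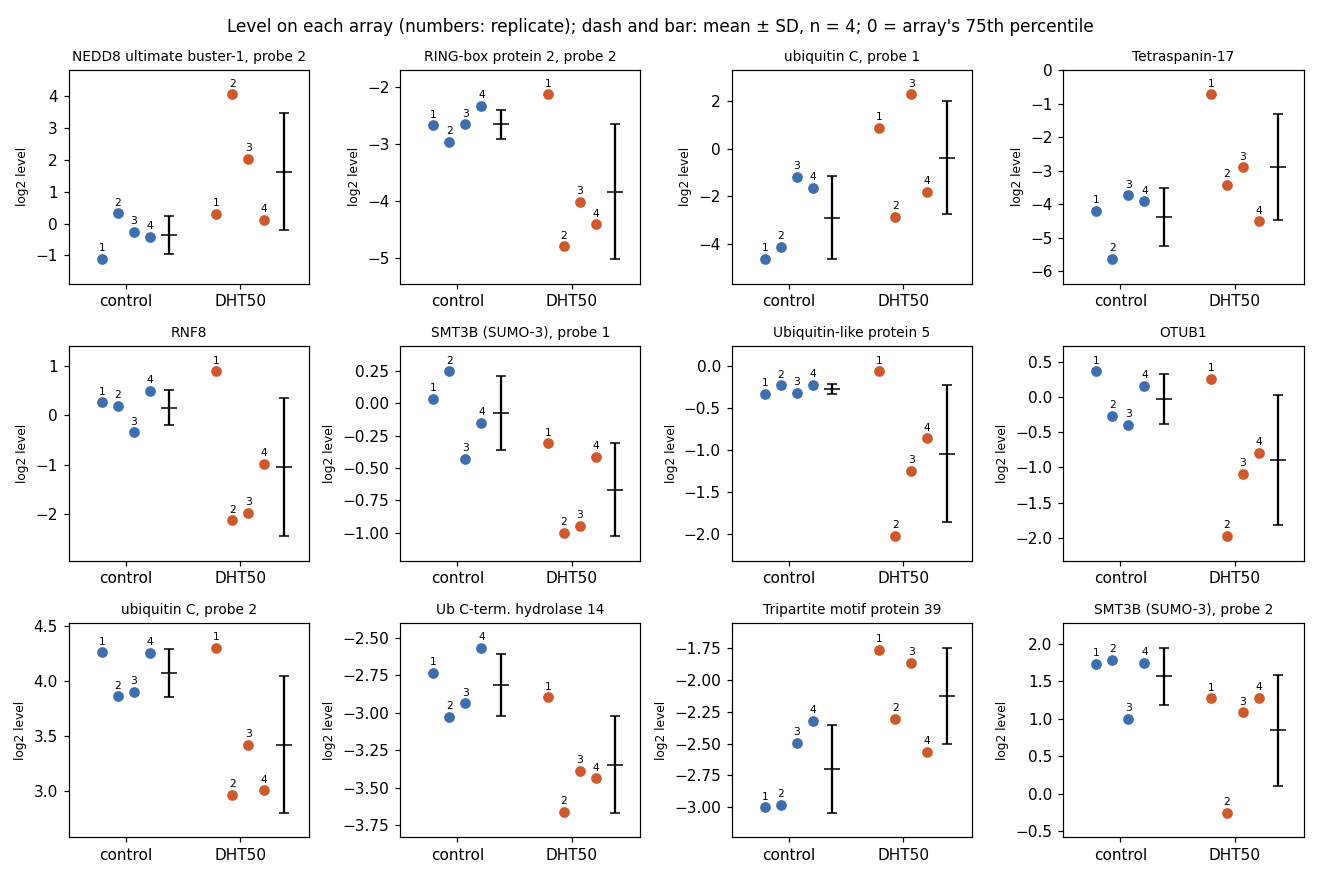
Level on each array (y axis, log2 signal minus the array's 75th percentile) for 12 members, those with the smallest unadjusted p in the plot of changes by role. Each point is 1 sample, numbered by replicate, and the dash with bar is the mean ± SD (n = 4). On 6 of the 12 panels DHT50 1 lies among or above the controls while DHT50 2, 3 and 4 lie below all of them, as for Ubiquitin-like protein 5 at -0.07 against -2.02, -1.24 and -0.86.

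RNF8, a RING ligase that marks chromatin at DNA breaks, stood at 0.26, 0.20, -0.34 and 0.50 in controls. In DHT50 it stood at 0.89, -2.13, -1.98 and -0.98. DHT50 1 was the highest of all 8 arrays and the other 3 DHT50 arrays were the lowest. Its change of -1.20 ± 0.62 (unadjusted p = 0.0843, limma) was the most negative of all members and a fold of 2.30, and it was -1.85 without DHT50 1 and -0.77 after normexp. Membrane-associated ring finger 6, a ligase of the endoplasmic reticulum, was at -0.64 ± 0.39, with -0.40 without DHT50 2 and -0.27 after normexp. Ring finger proteins 20 and 40, which together ubiquitinate histone H2B, were at -0.42 ± 0.33 and -0.36 ± 0.36. With 1 array left out they ran from -0.55 to -0.25 and from -0.54 to -0.17.

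Other E3 members were higher in DHT50 without passing. Tripartite motif protein 39, which the design also names testis-abundant finger protein, stood at -3.002, -2.98, -2.495 and -2.32 in controls and at -1.77, -2.30, -1.86 and -2.56 in DHT50. DHT50 1, 2 and 3 were above every control and DHT50 4 was not, with a change of 0.58 ± 0.33 that was 0.03 within slide row 2. Ubiquitin conjugation factor E4 B, which lengthens ubiquitin chains, was at 0.85 ± 0.50 on probe 1 and 0.55 ± 0.52 on probe 2. On probe 1 the 3 DHT50 arrays other than DHT50 1 were above every control, and the change was 0.26 after normexp. Ariadne-1, an RBR ligase, was at 0.52 ± 0.39 and at 0.20 without DHT50 2. RING finger protein 29 (MuRF2) is a ligase of striated muscle, and its change was 0.77 ± 0.64, with 0.24 without DHT50 2 and -0.24 with array brightness in the fit. It was highest in DHT50 2 at 0.71 and lowest in control 1 at -2.60. The summed level of the 42 probes of the muscle list was likewise highest in DHT50 2, at 11.39, and lowest in control 1, at 8.96, but creatine kinase B-type and testis isozyme, which are not specific to muscle, carried it. The brightest probe of the muscle form, creatine kinase M-type, stood at 3.96 in control 1 and 3.35 in DHT50 2. A parvalbumin beta probe ran the other way, at -1.68 in control 1 and 0.41 in DHT50 2. Of the 32 tested probes of the muscle list 23 were higher in DHT50 and 9 lower. The part of muscle RNA in the result for RING finger protein 29 was not tested. Mdm2, the ligase of p53, was at 0.16 ± 0.39, and EDD, a HECT-type ligase that the design also calls progestin-induced protein, at 0.20 ± 0.31 and 0.48 ± 0.65 on its 2 probes. With 1 array left out the sign was not stable for Cullin-4A (-0.066 to 0.77), Mdm2 (-0.058 to 0.38) and EDD probe 2 (-0.04 to 0.92), and E4 B probe 2 ran from 0.22 to 0.92. With array brightness in the fit these probes were at -0.47, -0.068, -0.44 and -0.18, in that order. Cullin-4A was well above background on 3 of 4 DHT50 arrays.

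The enzymes that remove ubiquitin had 4 higher and 3 lower, with a median change of 0.06. OTUB1, which cleaves chains and also blocks E2 enzymes, stood at 0.37, -0.26, -0.39 and 0.16 in controls and at 0.27, -1.97, -1.09 and -0.79 in DHT50. Ubiquitin carboxyl-terminal hydrolase 14, which trims chains at the proteasome, stood at -2.73, -3.03, -2.94 and -2.57 and at -2.90, -3.66, -3.39 and -3.44. Both had DHT50 1 within the control range and the other 3 DHT50 arrays below it, with changes of -0.87 ± 0.47 and -0.53 ± 0.30. Hydrolase 14 was well above background on 3 of 4 DHT50 arrays, and its change was -0.29 after normexp. Ubiquitin carboxyl-terminal hydrolase 13 was at 1.03 ± 0.73, the largest positive change of the group. Its level was 0.09 in DHT50 2 and -4.16 to -2.13 on the other 7 arrays, and without DHT50 2 the change was 0.34. Hydrolase 47 had 0.69 ± 0.45 on probe 1 and 0.06 ± 0.32 on probe 2. Probe 1 was at 0.42 without DHT50 2, 0.40 without control 1 and 0.094 with array brightness in the fit. Ubiquitin specific protease 39, a splicing factor of this family that lacks protease activity, was at -0.42 ± 0.34, and at -0.23 without DHT50 2.

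NEDD8 ultimate buster-1, an adaptor that sends NEDD8 and its conjugates to the proteasome and is induced by interferon in human cells, gave the 1 member at an unadjusted p under 0.05. Its probe 2 stood at -1.11, 0.32, -0.25 and -0.42 in controls and at 0.30, 4.06, 2.05 and 0.12 in DHT50. DHT50 2 and DHT50 3 were far above every control, and DHT50 1 and 4 lay inside the control range. The change was 1.996 ± 0.81 (a fold of 3.99, unadjusted p = 0.0334, adjusted p = 0.685, limma), and it was 1.19 without DHT50 2, 0.87 with array brightness in the fit, 3.25 within slide row 1 and 0.24 within slide row 2. Probe 1 was designed on the same sequence as probe 2, at positions that do not overlap with it. It stood at -3.41, -3.57, -3.57 and -3.02 in controls and at -3.04, -3.61, -3.78 and -3.78 in DHT50. Its change was -0.16 ± 0.32, and DHT50 2, DHT50 3 and DHT50 4 lay below every control on it. The 2 probes of 1 sequence thus gave different patterns. Probe 1 was the dimmer and was well above background on 3 of 4 DHT50 arrays. Its -3.61 in DHT50 2 lay close to the lowest level well above background on that array, -3.75. On DHT50 3 that lowest level was -4.86, and there probe 1 stood at -3.78 and probe 2 at 2.05.

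Of the other members outside the relay, Tetraspanin-17, which the name search took up through its other name F-box only protein 23, stood at -4.19, -5.63, -3.73 and -3.91 in controls and at -0.72, -3.41, -2.89 and -4.50 in DHT50. DHT50 1 was the highest, DHT50 2 and 3 were also above every control and DHT50 4 lay among the controls, with a change of 1.48 ± 0.76 that was 0.76 without DHT50 1, 0.87 after normexp and -0.08 within slide row 2. The homocysteine-responsive protein Herp, part of degradation at the endoplasmic reticulum, was at -0.32 ± 0.40. Ubiquitin fusion degradation protein 1, a cofactor of the p97 segregase, was at -0.04 ± 0.34.

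Probes that share a product name did not always have changes of the same sign. Counting ubiquitin C and its isoform 1 as 1 name, 9 names had at least 2 tested probes, and for 4 of them (NEDD8 ultimate buster-1, ubiquitin C, Ubiquitin and E2 variant 1) the probes had changes of opposite sign. For E2 variant 1, probe 2 was at 0.45 ± 0.49 and probe 3 at -0.73 ± 0.43. Its probe 2 was well above background on 3 of 4 DHT50 arrays, and probe 1 was not on any array. Of the 13 pairs of such probes 7 had the same sign. Some of these changes were smaller than their standard error, such as -0.06 ± 0.28 for ubiquitin C probe 3 and -0.16 ± 0.32 for NEDD8 ultimate buster-1 probe 1. The levels over the 8 arrays had a Pearson correlation above 0.5 in 4 of the 13 pairs and below 0 in 7. Hydrolase 47 had changes of the same sign on its 2 probes and a correlation of -0.495. The tested probes of NEDD8 ultimate buster-1 came from 1 design sequence. Every other pair came from different design sequences and may not measure the same transcript. Probes named for ubiquitin may hybridise to several near-identical ubiquitin transcripts, so those values are uncertain for any single gene.

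**Figure D3:**
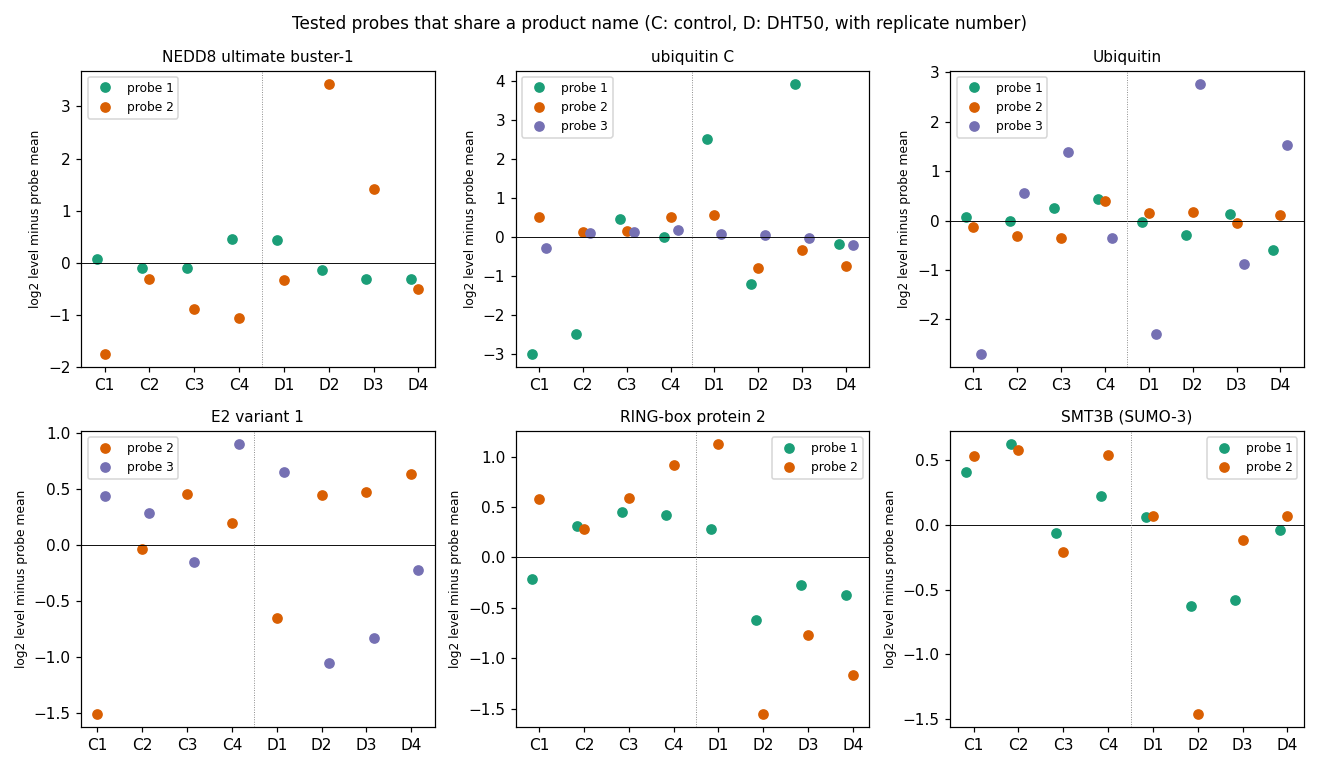
Level on each array minus the probe's own mean over 8 arrays (y axis, log2) for 6 product names with more than 1 tested probe; colours are probes, C is control and D is DHT50 with the replicate number. RING-box protein 2 and SMT3B show their probes moving together, whereas for NEDD8 ultimate buster-1 only probe 2 is high in DHT50 2 and DHT50 3.

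Many members, like many probes over the whole array, set DHT50 1 apart from the other treated males. For 18 of 67 members, 26.9%, 3 of 4 DHT50 arrays lay below every control, against 12.6% of all tested probes, and in 17 of the 18 the exception was DHT50 1, as in 575 of 754 probes over the array. For 9 of 67, 13.4%, 3 of 4 lay above every control, against 16.6% of all tested probes, and DHT50 1 was the exception in 7, as in 816 of 996 probes over the array. This count was chosen after the values were seen. Of the 18 with 3 of 4 DHT50 arrays below, 17 are drawn in the plot of changes by role. These include Ubiquitin probe 1, for which DHT50 3 and not DHT50 1 was the exception. They came from every role shown: 3 modifiers, 3 E2, 8 E3, 2 removal enzymes and NEDD8 ultimate buster-1 probe 1. The count below was 21 after quantile normalization (13.4% of all probes), 20 in the deposited values (13.8%) and 8 after normexp (6.53%). Leaving out DHT50 1 gave 17 members at an unadjusted p under 0.05, 12 of them lower, 25.4% of the members where 23.2% of all probes passed, and again 0 at an adjusted p of 0.05.

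Some marker probes also set DHT50 1 apart, and others did not. DEAD-box protein 4 stood at 0.03, -0.82, -1.17 and -0.24 in controls and at -0.02, -2.08, -2.37 and -1.59 in DHT50, with DHT50 1 among the controls and the other 3 below them. On both probes of L-xylulose reductase, which the design also calls a sperm antigen or sperm surface protein, all 4 DHT50 arrays lay below every control, DHT50 1 only just. The whole germ cell and sperm list had 3 of 8 probes higher and 5 lower, 2 at an unadjusted p under 0.05 and 0 at an adjusted one (limma), with 5 well above background on every array. Its summed level was 4.00 to 4.48 in controls and 3.55 to 4.66 in DHT50, with DHT50 1 at 4.48, and Motile sperm domain containing protein 1 carried nearly all of it. The 8 somatic and steroid probes summed to -0.49 in DHT50 1, below the other 7 arrays, the lowest of which was at 0.42. The 21 leukocyte probes summed to 4.87 in DHT50 1, above the 2.26 to 4.38 of the others. An MHC class II invariant chain probe was highest there at 3.08, while a lysozyme C probe was lowest there at -3.59. The part of cell makeup in the members' arrangement was not tested.

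DHT50 1 also differed in brightness: at 10.95 it was near control 1, while the other 3 DHT50 arrays were dimmer than every control. Brightness thus went partly with treatment, so a fit with both cannot fully tell brightness and DHT50 apart. With brightness as a covariate the change of RNF8 was -0.37, of OTUB1 -0.21, of Ubiquitin-like protein 5 -0.28, of RING-box protein 2 probe 2 -0.51 and of E2 variant 1 probe 3 -0.27. Hydrolase 13 and F-box only protein 7 turned to -0.12 and -0.27, while ubiquitin C probe 1 and Tetraspanin-17 were at 2.97 and 2.20. Under that fit 21 members were higher and 46 lower, with a median of -0.17 for members and -0.13 for all tested probes. DHT50 2, the dimmest array, held the highest or the lowest level of 40 of 67 members, 59.7%, against 53.9% of all tested probes. Control 1, the brightest, held the lowest level of 28 members, 41.8%, and the highest of 1, against 31.9% and 11.1% of all tested probes.

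**Figure D4:**
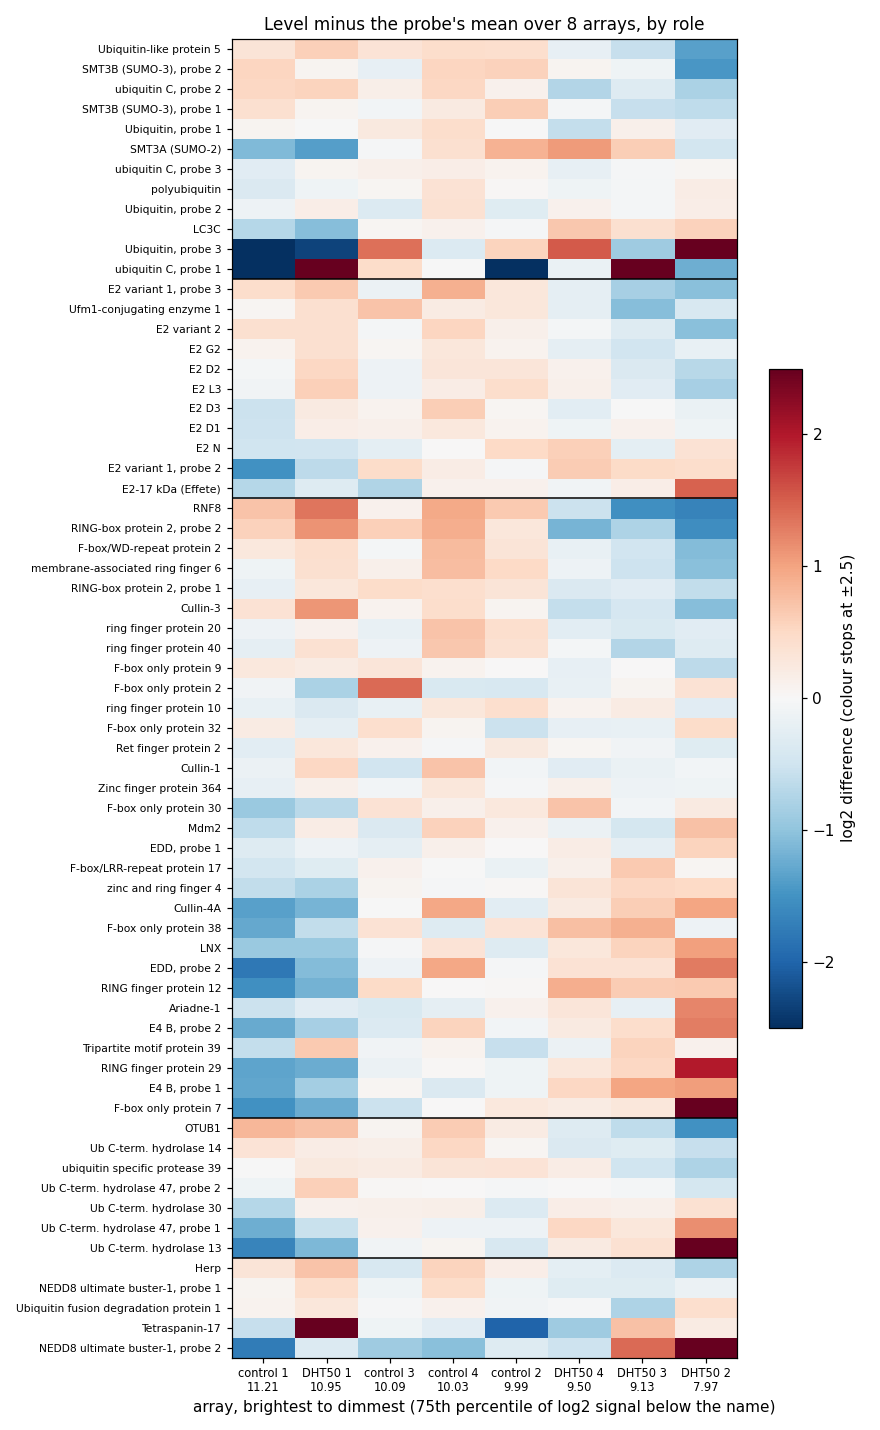
Level of each tested member minus its mean over the 8 arrays (colour, log2 units, red above and blue below the mean), with arrays ordered from brightest (control 1, 11.21) to dimmest (DHT50 2, 7.97) and members grouped by role and ordered by their change. By this order members at the top of a block are mostly low on DHT50 2, 3 and 4 and those at the bottom mostly high there, while DHT50 1 has the colour of control 1 for many members and not for ubiquitin C probe 1 or Tetraspanin-17.

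Proteins that work beside the members also had 0 calls at an adjusted p of 0.05. Of 50 tested proteasome probes 17 were higher and 33 lower, with a median change of -0.23, and 0 passed an adjusted p of 0.05. Over all tested probes 4.71% had an unadjusted p under 0.05, and of the proteasome probes 2 did. These were 1 probe of Proteasome activator complex subunit 1, at 0.95 ± 0.31, and 1 of Proteasome subunit beta type 7, at -0.94 ± 0.41. The activator subunit is a regulator induced by interferon, and its second probe was at 0.31 ± 0.41. Beta type 7 is a catalytic subunit, and its other 3 probes had positive changes of 0.68 to 1.17. A list of ligases and ligase partners outside the members had 26 tested probes, 10 higher and 16 lower, with a median of -0.16. It held Skp1, elongins, COP9 signalosome subunits and tripartite motif proteins, and also HECT-domain ligases and BTB zinc finger proteins. Again 0 passed, and the 2 at an unadjusted p under 0.05 were Tripartite motif protein 25, an estrogen-responsive ligase of antiviral signalling, at 1.58 ± 0.51, and Tripartite motif protein 16 at 1.14 ± 0.46, with 0.74 ± 0.60 on its second probe. The 3 probes of p97 and its nuclear relative had changes of -0.79 to 0.85.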

How the data were processed

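The members and lists were chosen with earlier results of these data known. The authors deposited processed green spot intensity from Agilent Feature Extraction 10.7.1.1, background-subtracted and detrended within each array, per the file headers, together with raw median spot and background intensity. The authors' deposited log2 table has equal sorted values on all 8 arrays (largest difference 0), while the sources used here do not give its tool. The analysed level is log2 signal less the 75th percentile of the array (14314 spots, controls excluded), leaving out 28 of 114512 readings flagged as outliers, and the 2 spots of a probe were averaged. No spot was saturated. Probes well above background on at least 4 of 8 arrays were tested with limma 3.58.1 in R 4.3.3 (two-sided, Benjamini-Hochberg over 5989 probes), after a check on simulated data. The median standard error over members was 0.38, and the number of arrays limits the precision. Roles were set by name, with 8 probes moved by known role (for example E4 B to the ligases). The named members are the 24 with the smallest p, the extremes of each role, all ubiquitin and SUMO probes and same-name probes of opposite sign. Others are named only to give their value. The files used here hold no probe sequence, and no member has an accession, so no sequence or coordinate is printed. The values of 1 member are not reported here. Marker lists were matched by words in the design names, so some of their probes are not specific to the cell type. Chance matches such as spermidine enzymes, or parvalbumin for albumin, were left out.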

Additional observations from a re-analysis of the deposited data

Results flagged for a closer look

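A sample lay far from the other 3 of its group in 4 of the 68 groups of 4 levels examined for the 34 named members, where chance flags about 1 in 20 groups. SMT3B probe 2 was at 0.999 in control 3, the next control being at 1.73, and at -0.25 in DHT50 2, the next DHT50 array being at 1.09. Ubiquitin C probe 3 was at 7.10 in control 1, with 7.47 next to it. E2 variant 1 probe 2 was at -5.54 in DHT50 1, with -4.45 in DHT50 2 next to it. That neighbour lay below the lowest level well above background on DHT50 2, which was -3.75.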

How the results depend on the processing

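With 4 arrays per group and members near background on dim arrays, no member's change could be told from 0 at the adjusted threshold. This includes changes larger than their standard error. Under the 20 alternatives 0 of 67 members passed an adjusted p of 0.05, as in the reported fit, while within slide row 1 alone 106 of 5989 probes did, and 32 of 67 kept their sign under all of them. The 1 member at an unadjusted p under 0.05 (limma) became 2 after quantile normalization and in the deposited table. That was 2.99% of members, where 5.29% and 5.21% of all probes passed. The count became 19 with array weights, 28.4% of members against 21.4% of all probes, and 0 with slide row blocked, against 6.56%. With 1 array left out the count ran from 0 (without control 1, control 4 or DHT50 3) to 17 (without DHT50 1). It was 3 without DHT50 4. The shares of all probes in those fits were 2.59%, 3.74%, 2.29%, 23.2% and 5.58%. NEDD8 ultimate buster-1 probe 2 was not the member at this threshold with brightness in the fit (Tetraspanin-17). Nor was it without control 3, DHT50 2, or control 1 and DHT50 2 together (ubiquitin C probe 1). In each of those fits 1.49% of members passed, against 2.67% to 5.93% of all probes. The median change of members was 0.23 within slide row 1, where that of all probes was 0.33. With the replicate number as a block the count was 5 (7.46% of members, 9.97% of all probes). The numbers were not taken as pairs, and the correlations of deviations do not settle whether they are. Same-numbered arrays correlated at 0.20, 0.16, 0.38 and -0.11. DHT50 1, DHT50 2 and DHT50 3 each went best with the control of the same number, while DHT50 4 went best with control 2 (0.22). Of 673 values of named members under the alternatives 29 had the sign turned, and the cause was not tested. After normexp polyubiquitin was at 0.064 and ubiquitin C probe 3 at 0.016. With array weights SMT3A was at 0.22 and Ubiquitin probe 3 at -0.19. With slide row blocked polyubiquitin was at 0.055 and SMT3A at 0.67. Within row 1 polyubiquitin was at 0.36, SMT3A at 0.70, ubiquitin C probe 3 at 0.31 and RING-box protein 2 probe 1 at 0.0055, and within row 2 SMT3A was at 0.65 and Tetraspanin-17 at -0.081. With brightness in the fit Ubiquitin probe 3 was at -1.12, E2 variant 1 probe 2 at -0.087, F-box only protein 7 at -0.27, hydrolase 13 at -0.12 and Herp at 0.086. Without control 1 and DHT50 2 together the first 4 of these were at -1.09, -0.051, -0.16 and -0.036. With 1 array left out SMT3A ran from -0.45 to 0.37, Ubiquitin probe 3 from -0.28 to 1.41, polyubiquitin from -0.16 to 0.075 and ubiquitin C probe 3 from -0.16 to 0.00084. The count of members with 3 of 4 DHT50 arrays below every control was 8 after normexp, an alternative chosen after seeing the data.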
